A study of Mus musculus with 190 samples.

Results

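The blood of 2 cohorts of male wild-type NC/Nga mice was compared, 10 libraries of cohort 8 taken on day 26 and 10 libraries of cohort 7 taken on day 23. These 20 libraries are part of a series of 190, and each was the first blood sample of its cohort. NC/Nga is an inbred mouse strain known for dermatitis resembling atopic dermatitis in conventional housing, and both cohorts carry the label conventional. The series set out to describe the blood transcriptome before and after the onset of this dermatitis and by its severity. No further allele, treatment or age is given for either cohort. Each day was sampled in its own cohort, so the effects of sampling day and of cohort cannot be told apart here. The same cohorts were sampled a second time, cohort 7 on day 44 and cohort 8 on day 40, with 10 libraries each. All 55414 genes of the count table were considered and 18192 of them had enough counts to be tested.

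Whole blood holds red cells and their reticulocytes, which still carry RNA, platelets, which are anucleate fragments of megakaryocytes with RNA inherited from them, and leukocytes. In mice lymphocytes are the most numerous leukocytes and neutrophils, the short-lived phagocytes released from bone marrow, come next. Skin inflammation is known to raise neutrophil output, and platelets adhere at injured vessel walls through a receptor complex for von Willebrand factor. In bulk RNA a change in the number of cells of a type and a change in the RNA each cell holds cannot be told apart.

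Each library is labelled with a dermatitis score. The day 23 libraries comprised 4 of score 0, 2 of score 0.5, 1 of score 1 and 3 of score 2, and the day 26 libraries 2, 1, 5 and 2 of the same scores. The mean was 0.8 ± 0.888 (SD, n = 10) on day 23 and 0.95 ± 0.685 (SD, n = 10) on day 26 (permutation test, two-sided, p = 0.782). Total counts ran from 25.5 to 46.7 M on day 23 and from 31.2 to 72 M on day 26 (permutation p = 0.176, adjusted over 7 measures 0.308). The share of mitochondrial rRNA was 13.1% ± 4.3 on day 23 and 16.0% ± 1.64 on day 26 (n = 10 each, permutation p = 0.0566, adjusted p = 0.198). Day 23 libraries 7 and 8 stood apart, with globin shares of 0.96% and 2.398% against 6.95% to 11.4% in the other 18 libraries, and mitochondrial rRNA shares of 3.85% and 8.22%. Day 26 library 1, with score 2, also stood apart. On the first principal component of 5903 genes, which held 50.3% of the variance, it lay at 0.363. The 3 day 23 libraries of score 2 lay beside it (0.293 to 0.429). The other 9 day 26 libraries lay between -0.334 and -0.0571, among them library 5, also of score 2, at -0.138. Several results are given both with and without these libraries. Within its day, library 1 lay toward the day 23 levels in the neutrophil, B cell, MHC class II, platelet and red cell lists described below. Leaving it out therefore widens those differences by itself.

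Between day 23 and day 26, 279 of 18192 genes differed (edgeR's quasi-likelihood test, Benjamini-Hochberg adjusted p under 0.05), which is 1.53% of the genes tested. Genes higher on day 26 made up 0.929% of those tested and genes lower on day 26 made up 0.605% (110 genes), so that 60.6% of the calls were higher, against 43.1% without day 26 library 1 and 24.3% among libraries of score 0.5 to 2 (0.154% of genes higher and 0.478% lower). Their differences were small, with a median size of 0.58 on the log2 scale among the higher genes and 0.56 among the lower ones. Tgif1, Gpr137c and Cxcr4 were among the higher genes, and the platelet receptor genes Gp5 and Gp1bb and the linker histone genes H1f4 and H1f3 among the lower ones. The count depended on single libraries: it was 2270 (12.5%) without day 26 library 1 and 36 without day 26 library 5. It was 1245 without day 23 libraries 7 and 8, and 3824 when day 26 library 1 was left out as well. All 279 genes were also called without day 26 library 1, and 33 were called in each of the 20 fits that left out 1 library, 21 of them higher and 12 lower. DESeq2 called 1173 genes (10.6%), of which 586 were higher (5.3%) and 587 lower (5.3%), and 266 of the 279 were among them.

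**Figure D1:**
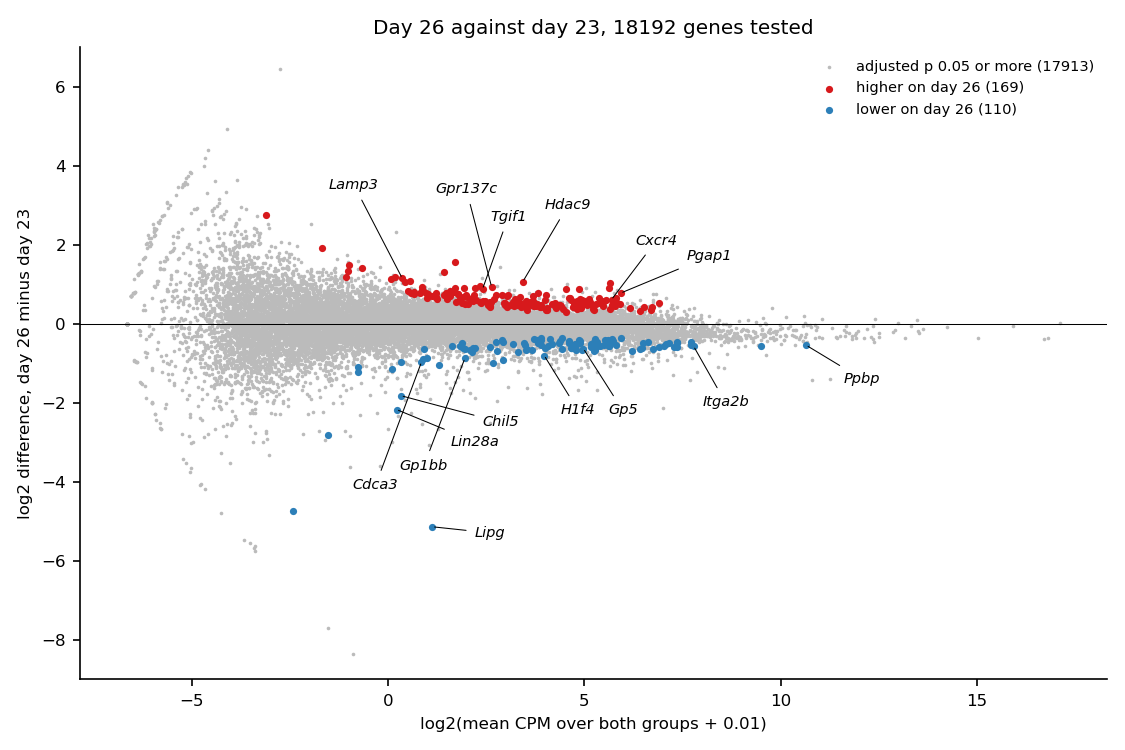
Each point is 1 of 18192 genes, with its mean level over both days on the x axis (log2 of CPM + 0.01, CPM being counts scaled to a common library total) and its log2 difference, day 26 minus day 23, on the y axis. The genes called higher (red) reach 2.75 and those called lower (blue) reach -5.15, at Lipg.

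Tgif1, a homeodomain repressor that restrains TGF-beta and retinoid signalling, had the smallest p of all genes. Its level on day 23 ran from 2.58 to 5.17 CPM (counts scaled to a common library total), with a median of 3.79, and on day 26 from 5.11 to 8.12 with a median of 6.84. The groups overlapped only through library 8 of each day, the lowest of day 26 and the highest of day 23. The log2 difference was 0.87 ± 0.12 (SE), adjusted p = 0.00266, and the largest adjusted p over the 20 fits that left out 1 library was 0.0104. Tgif1 lies on chromosome 17 at 71151200 to 71160541, minus strand (GRCm39). Gpr137c, a lysosomal membrane protein, ran from 2.14 to 6.65 CPM on day 23 (median 4.1) and from 6.65 to 9.68 on day 26 (median 8.01). The groups met only at 6.65, and the log2 difference was 0.93 ± 0.16, adjusted p = 0.0082. Cxcr4, the chemokine receptor that holds leukocytes and their precursors in bone marrow, ran from 31.6 to 59.96 CPM on day 23 (median 40.1) and from 47.65 to 82.1 on day 26 (median 60.9). It rose by 0.61 ± 0.11, adjusted p = 0.016, with the highest day 23 value in a library of score 2 and the highest day 26 value in library 1. These 3 genes passed in every fit that left out 1 library.

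The 12 largest rises among protein-coding genes of at least 1 CPM were those of Lamp3, Hdac9, Acsf2, Cobll1, Gpr137c, Ap1s3, Il9r, Dennd5b, Tgif1, Rnf157, Cyp2r1 and Pgap1. Hdac9, a class IIa histone deacetylase, ran from 3.11 to 13.5 CPM on day 23 (median 6.47) and from 5.81 to 20.2 on day 26 (median 15.6). The day 26 minimum was library 1, and the other 9 libraries of that day lay at 11.8 or above. Its log2 difference was 1.06 ± 0.25, adjusted p = 0.040. Lamp3, a lysosomal membrane protein of mature dendritic cells, rose by 1.15 ± 0.27 from 0.797 ± 0.345 to 1.75 ± 0.515 CPM (SD, n = 10 each, adjusted p = 0.035). Il9r, the receptor of interleukin 9, rose by 0.90 ± 0.20 from 3.25 ± 1.28 to 6.00 ± 1.22 CPM (adjusted p = 0.030). Of the 12, Gpr137c and Tgif1 passed in all 20 fits that left out 1 library, and the others in 4 to 12.

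**Figure D2:**
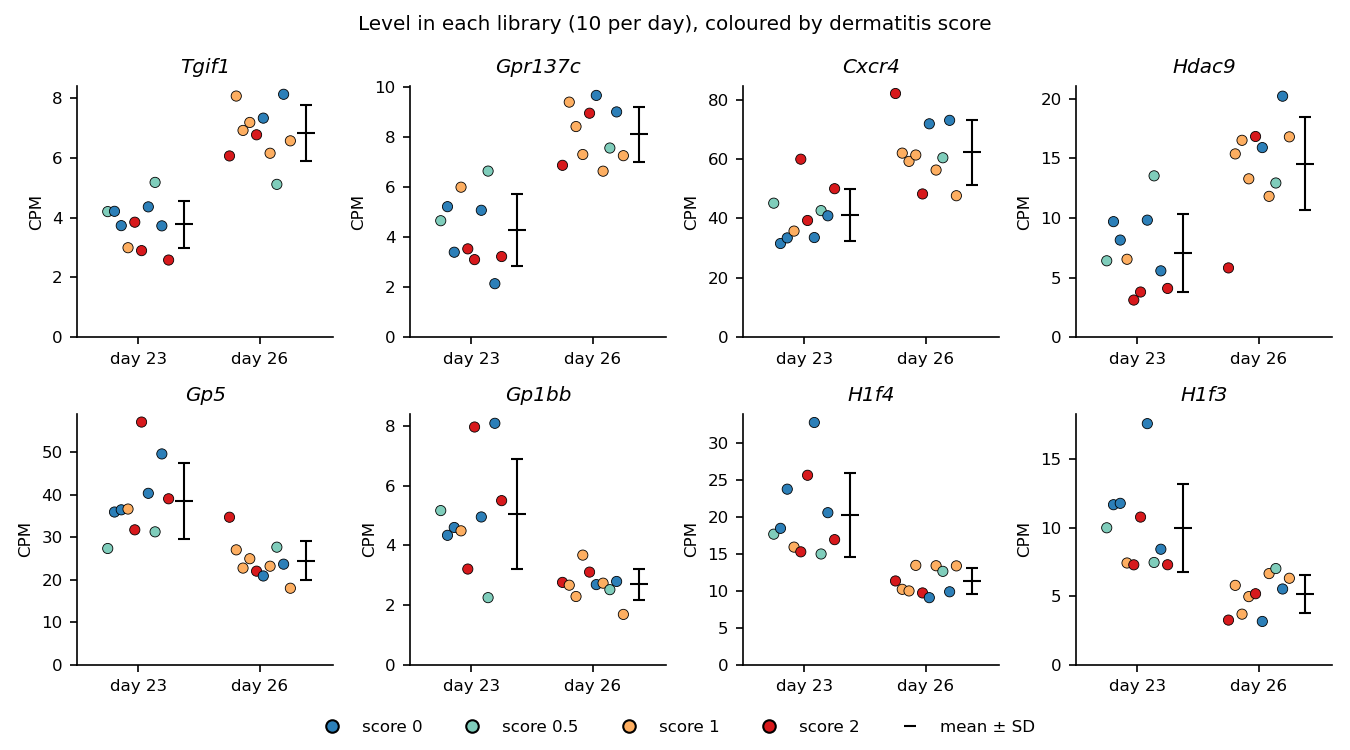
Level of 8 genes (CPM, linear axis from 0) in each of the 10 libraries per day, coloured by dermatitis score, with mean and SD beside the points. Tgif1, Gpr137c, Cxcr4 and Hdac9 were higher on day 26, and Gp5, Gp1bb, H1f4 and H1f3 lower; in Hdac9 the day 26 library of 5.81 CPM lies among the day 23 libraries.

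Further higher genes are named here after their values were seen. Rel, an NF-kappa-B subunit active in lymphocytes, rose from 29.1 ± 5.87 to 41.95 ± 5.91 CPM (n = 10 each), a log2 difference of 0.55 ± 0.11 (adjusted p = 0.022). Malt1, a protease of antigen-receptor signalling to NF-kappa-B, rose by 0.42 ± 0.11 (adjusted p = 0.045). Pou2f1, Foxp1 and Ets1, transcription factors, rose by 0.65 ± 0.13, 0.49 ± 0.12 and 0.52 ± 0.13. Swap70, an actin regulator of B cells, rose by 0.58 ± 0.13, and Tnfrsf13b, the B cell receptor TACI, by 0.47 ± 0.12 (adjusted p 0.035 and 0.049). Camk2d, a calcium-dependent kinase, ran from 23.9 to 42.7 CPM on day 23 (median 32.8) and from 29.5 to 58.7 on day 26 (median 53.4). Its lowest day 26 value was again library 1, and the other 9 lay above every day 23 library. The difference was 0.65 ± 0.12, adjusted p = 0.016.

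Of 1185 tested loci of the class TEC, provisional gene models of unknown function, 33 were higher and 2 lower on day 26 (2.95%), with a median difference of 0.29. Long noncoding RNAs gave 9 higher and 3 lower of 1583 (0.758%), and 1.59% of 14125 protein-coding genes were called. The median over all genes was -0.0027. The share of TEC and long noncoding genes in the counts outside globin, mitochondrial rRNA and RNA component genes was 2.17% ± 0.245 on day 23 and 2.44% ± 0.323 on day 26 (SD, n = 10 each, permutation p = 0.0508, adjusted p = 0.198). The part of this share in the calls of single loci was not tested.

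Platelet genes gave the most lower calls of any list. Of 20 platelet genes 8 fell and 0 rose, against 0.605% of all genes called lower, and all 20 had a negative difference with a median of -0.48. Gp1bb, Gp5, Gp9, Treml1, Itga2b, Ppbp, Nrgn and P2ry1 were the 8. The summed level of the 20 genes ran from 5180 to 9190 CPM on day 23 (median 5870) and from 3210 to 7890 on day 26 (median 4460). The highest day 26 sum was that of library 1. Without that library 16 of the 20 fell, where 7.1% of all genes did, and with the dermatitis score as a covariate 13 fell, where 4.17% did. Among libraries of score 0.5 to 2 the median was -0.40 and 0 of 20 fell, where 0.478% of all genes did. Over the fits that left out 1 library the number was 2 to 16, and in none did a platelet gene rise.

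The receptor for von Willebrand factor has 4 subunits, and the genes of 3 fell. Whether the subunits differed from each other was not tested. Gp5, the subunit cleaved by thrombin, ran from 27.3 to 57.01 CPM on day 23 (median 36.5) and from 18 to 34.7 on day 26 (median 23.4). The 9 day 26 libraries other than library 1 lay at 27.6 or below, and 9 of 10 day 23 libraries lay above that. Its log2 difference was -0.64 ± 0.12, adjusted p = 0.016. Gp1bb, the beta chain, ran from 2.25 to 8.08 CPM on day 23 (median 4.77) and from 1.69 to 3.67 on day 26 (median 2.71). It fell by 0.88 ± 0.18 on the log2 scale (adjusted p = 0.018), and 2 day 23 libraries lay within the day 26 range. Gp9 fell by 0.70 ± 0.17 from 91.9 ± 34.3 to 56.1 ± 11.1 CPM (n = 10 each, adjusted p = 0.038). Gp1ba, the chain that binds von Willebrand factor, differed by -0.14 ± 0.13 (adjusted p = 0.569), from 17.3 ± 4.65 to 15.5 ± 2.72 CPM. Gp5 and Gp1bb passed in every fit that left out 1 library, Gp9 in 8 of 20.

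The promoters of the 4 subunits are shown because 3 of the genes fell together and the fourth did not pass. Each is 300 bases of the gene's strand around the start, from RefSeq on GRCm38.p6. Capitals mark GATA motifs (AGATAA or TGATAA) and ETS motifs (AGGAAG or CGGAAG) on either strand, which GATA1 and ETS factors of megakaryocytes are known to bind. The positions are chr11:70638872-70639171 (plus strand) for Gp1ba, chr16:18622354-18622653 (minus) for Gp1bb, chr16:30310732-30311031 (minus) for Gp5 and chr6:87777820-87778119 (plus) for Gp9.
Gp1ba: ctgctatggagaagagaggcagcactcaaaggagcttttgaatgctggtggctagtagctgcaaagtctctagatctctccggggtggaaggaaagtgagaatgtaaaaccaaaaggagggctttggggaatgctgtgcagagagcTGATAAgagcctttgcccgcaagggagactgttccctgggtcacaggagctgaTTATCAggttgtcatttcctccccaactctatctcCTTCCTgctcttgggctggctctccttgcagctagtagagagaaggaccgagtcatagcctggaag
Gp1bb: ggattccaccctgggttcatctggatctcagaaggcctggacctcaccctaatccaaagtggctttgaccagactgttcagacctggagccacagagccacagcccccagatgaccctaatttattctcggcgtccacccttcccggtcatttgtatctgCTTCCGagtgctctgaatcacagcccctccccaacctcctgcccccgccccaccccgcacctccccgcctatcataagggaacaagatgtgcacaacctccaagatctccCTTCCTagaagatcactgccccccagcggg
Gp5: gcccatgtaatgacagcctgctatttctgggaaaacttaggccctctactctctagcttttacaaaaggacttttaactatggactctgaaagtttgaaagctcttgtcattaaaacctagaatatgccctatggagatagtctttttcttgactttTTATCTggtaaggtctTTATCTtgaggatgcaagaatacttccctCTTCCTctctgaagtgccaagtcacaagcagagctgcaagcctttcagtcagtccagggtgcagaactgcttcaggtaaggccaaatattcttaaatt
Gp9: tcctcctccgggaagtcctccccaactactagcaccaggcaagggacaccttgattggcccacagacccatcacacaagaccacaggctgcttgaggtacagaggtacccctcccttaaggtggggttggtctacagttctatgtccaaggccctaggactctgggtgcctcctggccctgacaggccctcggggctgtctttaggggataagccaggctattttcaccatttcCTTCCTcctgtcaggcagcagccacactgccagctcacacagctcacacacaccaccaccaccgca
Gp1ba and Gp5 each held 2 GATA motifs and 1 ETS motif, Gp1bb held 2 ETS motifs and Gp9 held 1. Among the 16 platelet genes with an entry a GATA motif stood in 6 (37.5%), against 19.0% of 27025 promoters in the table. An ETS motif stood in 10 of 16 (62.5%), against 46.4%, and both in 4 (25%), against 7.85%. These are matches of letters in a fixed window, and neither motif separated Gp1ba from the 3 subunits that fell.

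Other platelet genes fell too. Itga2b, the alpha chain of the fibrinogen receptor, ran from 196 to 484 CPM on day 23 (median 238) and from 121.3 to 251 on day 26 (median 170), a difference of -0.58 ± 0.14 (adjusted p = 0.040). Ppbp, a chemokine stored in alpha granules, fell by 0.55 ± 0.14 from 1922 ± 460 to 1299 ± 327 CPM (adjusted p = 0.047). P2ry1, an ADP receptor of platelets, and Treml1, a receptor of alpha granules, fell by 0.61 ± 0.14 and 0.65 ± 0.14. Outside the list, P2rx1 and Nfe2 are named here after their values were seen, so they add no separate support. The ATP-gated channel gene P2rx1 fell by 0.71 ± 0.13 (adjusted p = 0.017) and passed in every fit that left out 1 library. Nfe2, a transcription factor of megakaryocytes and red cell precursors, fell by 0.66 ± 0.17 (adjusted p = 0.047). Pf4, platelet factor 4, differed by -0.41 ± 0.14 (adjusted p = 0.103) and by -0.51 without day 26 library 1 (adjusted p = 0.0077).

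The 12 largest falls of protein-coding genes were those of Lipg, Lin28a, Chil5, Rhoc, Jdp2, Cdca3, Erg, H1f3, Gp1bb, Acta2, H1f4 and Smim4. Lipg, endothelial lipase, had a fitted difference of -5.15 ± 1.27 (adjusted p = 0.049), which rested on 1 library. Day 23 library 6 held 33.6 CPM, the other 9 of that day 0 to 3.14 (median of all 10 0.555), and day 26 ran from 0 to 0.717 (median 0.042). Without that library the difference was -3.04 (adjusted p = 0.129). Lin28a, an RNA-binding protein that blocks let-7 maturation, ran from 0.128 to 4.89 CPM on day 23 (median 1.27) and from 0.171 to 1.36 on day 26 (median 0.327), a fall of 2.18 ± 0.50 (adjusted p = 0.036). Chil5, a chitinase-like protein of myeloid cells, fell by 1.83 ± 0.41 from 1.95 ± 1.94 to 0.550 ± 0.247 CPM (adjusted p = 0.034). The highest day 26 value of Lipg, Lin28a and Chil5 was library 1, and the highest day 23 value of each was library 6, both of score 2.

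Cdca3, which marks mitotic inhibitors for degradation, ran from 1.63 to 3.28 CPM on day 23 (median 2.28) and from 0.62 to 1.72 on day 26 (median 1.18). Its fall of 0.98 ± 0.18 (adjusted p = 0.014) passed in all 20 fits that left out 1 library. Of 20 cell division genes 0 were called, with a median of -0.30 and 18 negative. Without day 26 library 1, the highest of its day in this list, 8 of the 20 fell, where 7.1% of all genes did. Lmna, the nuclear lamina protein lamin A, fell by 0.67 ± 0.13 (adjusted p = 0.017) and Acta2, smooth muscle actin, by 0.87 ± 0.21 (adjusted p = 0.035).

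The linker histone genes H1f4, H1f3 and H1f2 fell. H1f4 ran from 15.01 to 32.8 CPM on day 23 (median 18.1) and from 9.10 to 13.5 on day 26 (median 10.8), so the groups did not overlap. The difference was -0.81 ± 0.13, adjusted p = 0.0082. H1f3 ran from 7.29 to 17.6 CPM on day 23 (median 9.20) and from 3.16 to 7.01 on day 26 (median 5.35), again without overlap, and fell by 0.92 ± 0.18 (adjusted p = 0.017). H1f2 fell by 0.52 ± 0.11 from 160.1 ± 25.3 to 110.6 ± 21.7 CPM (adjusted p = 0.027). These genes lie on chromosome 13 in the main histone cluster, and encode closely similar proteins that clamp DNA at the nucleosome. Their transcripts lack poly(A) tails and are made in S phase. Only 5 of 18192 genes (0.0275%) had groups that did not overlap: H1f4, H1f3 and Dok2, an adaptor that dampens tyrosine kinase signalling, were lower, and Rbm12b2 and Tent5a, a poly(A) polymerase, were higher.

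Of all 61 tested genes of replication-dependent histones, a set chosen after values were seen, 7 fell and 0 rose, where 0.605% of all genes fell, with a median of -0.45 and 56 negative. Without day 26 library 1, 11 fell (7.1% of all genes), and without day 23 libraries 7 and 8 as well 10 fell (10.6% of all genes). H4c18, H4c9, H2bc4 and H2bc6 were the other four. Their summed level ran from 434 to 754 CPM on day 23 (median 599) and from 321 to 543 on day 26 (median 386). Among libraries of score 0.5 to 2 the median difference was -0.05, with 1 called, where 0.632% of all genes were. Among libraries of score 0 or 0.5 it was -0.74, with 0 called, where 0.0% of all genes were. Many members differ by few bases, so reads may have been shared among them.

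Genes of mature neutrophils had the lowest median of the lists without passing the test. All 22 had a negative difference, with a median of -1.08, and 0 were called, against 1.53% of all genes. At an unadjusted p under 0.05, 14 of 22 passed, as did 3738 of all 18192 genes. DESeq2 called 8 of 22, each lower, where it called 5.3% of all genes with an adjusted p lower. Mmp8, neutrophil collagenase, ran from 17.02 to 578 CPM on day 23 (median 118.3) and from 15.5 upward on day 26 (median 34.9). The 3 day 23 libraries of score 2 held 458 to 578 CPM, and the highest day 26 value was that of library 1, also of score 2, while day 26 library 5, the other library of that score, held 33.3. The difference was -2.15 ± 0.61 (adjusted p = 0.076) and -2.53 without day 26 library 1 (adjusted p = 0.015). S100a8, a subunit of calprotectin, ran from 270 to 7083 CPM on day 23 (median 2057) and from 364 to 3587 on day 26 (median 680), a difference of -1.43 ± 0.55 (adjusted p = 0.153). Without day 26 library 1 it was -1.902 (adjusted p = 0.024).

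The summed level of the 22 neutrophil genes ran from 1040 to 22100 CPM on day 23 (median 6570) and from 1470 to 11400 on day 26 (median 2880), so both ends overlapped. Without day 26 library 1, 11 of the 22 fell, where 7.1% of all genes did. Without day 23 libraries 7 and 8 as well 19 fell, where 10.6% of all genes did. Library 1 had the highest sum of day 26, and libraries 7 and 8 lay below the day 23 median. Leaving them out widens the difference by itself, so these counts are no separate support. Among libraries of score 0 or 0.5 the median difference was -0.24 and 0 were called, where 0.0% of all genes were. Among libraries of score 0.5 to 2 it was -1.5 and 0 were called, where 0.478% of all genes fell. Steap4, a metalloreductase that inflammatory signals raise, ran from 2.61 to 196 CPM on day 23 (median 73.9) and from 10.3 to 119.4 on day 26 (median 32.98). Its difference was -1.04 ± 0.53 (adjusted p = 0.270).

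Of 14 acute phase and complement receptor genes, 1 fell (Lipg), where 0.605% of all genes did. All 14 were negative and the median was -0.77. Lrg1, an acute phase glycoprotein also stored in neutrophil granules, differed by -1.38 ± 0.49 (adjusted p = 0.129).

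B cell genes were mostly positive. Of 20, 1 rose, where 0.929% of all genes did, and 0 fell. Of the 20, 19 were positive, and the median was 0.66. The one called was Ighd, the heavy chain of membrane IgD on naive B cells. It ran from 18.2 to 61.2 CPM on day 23 (median 32.95) and from 22.8 to 86.5 on day 26 (median 71.9), and rose by 1.02 ± 0.25 (adjusted p = 0.047). Its call was lost in 16 of the 20 fits that left out 1 library. Ebf1 and Cr2, an early B cell factor and complement receptor 2, differed by 0.99 ± 0.26 and 0.83 ± 0.24 (adjusted p 0.061 and 0.074). Cd79b, which carries signals from the B cell antigen receptor, ran from 20.2 to 94.1 CPM on day 23 (median 39.5) and from 25.6 to 84.5 on day 26 (median 67.6). The difference was 0.51 ± 0.26 (adjusted p = 0.273). Its lowest day 26 value was library 1, and its highest day 23 values were libraries 7 and 8, at 94.1 and 75.9 CPM.

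The summed B cell level ran from 326 to 1090 CPM on day 23 (median 590) and from 385 to 1220 on day 26 (median 1090). Without day 26 library 1, 12 of 20 B cell genes rose, where 5.38% of all genes did. Without day 23 libraries 7 and 8 as well 19 rose, where 10.4% of all genes did. Library 1 had the lowest B cell level of day 26, and libraries 7 and 8 the highest of day 23. Leaving them out widens the difference by itself, so these counts are no separate support. The omission of libraries 7 and 8 was chosen after the data were seen. With globin and mitochondrial rRNA shares as covariates 17 rose, where 3.78% of all genes rose and 6.72% were called. Among libraries of score 0.5 to 2 the median was 0.80 and 0 of 20 were called, where 0.632% of all genes were. All 11 genes of MHC class II, the molecules that present antigen to CD4 T cells, were positive with a median of 0.47, and 0 were called. Cd74, the invariant chain, differed by 0.80 ± 0.29 (adjusted p = 0.137), and 6 of the 11 rose without day 26 library 1. Of the tested immunoglobulin variable genes 2 rose (1.37%, against 0.929% of all genes), Igkv6-17 and Igkv1-110. The median over the class was 0.87, and many of these genes are near copies of each other. Of 16 plasma cell genes 0 were called, with a median of 0.32.

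**Figure D3:**
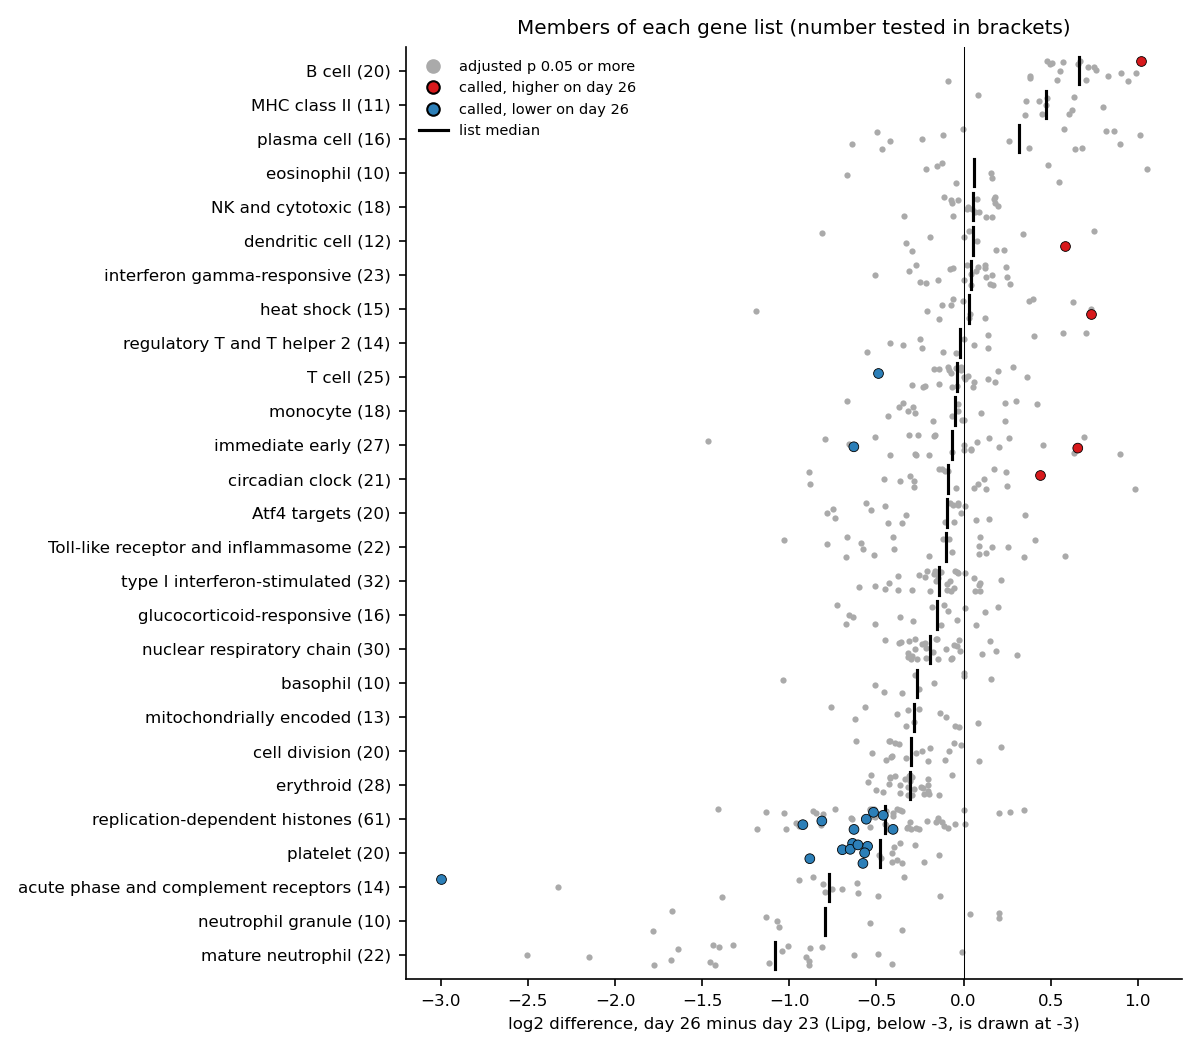
Log2 difference, day 26 minus day 23, of each tested member of 27 gene lists, ordered by list median (black bar), with called members in red or blue and Lipg drawn at the edge. Mature neutrophil genes lie at the lower end (median -1.08) with 0 called, platelet genes all lie below 0 with 8 called, and B cell genes lie at the upper end (median 0.66) with 1 called.

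Red cell genes were lower without passing. All 28 tested were negative, the median was -0.31 and 0 were called, while 12 fell without day 26 library 1, where 7.1% of all genes fell. Alas2, the first enzyme of heme synthesis in red cells, ran from 29430 to 56040 CPM on day 23 (median 36540) and from 20270 to 49590 on day 26 (median 27950), with library 1 at the top of day 26. Its difference was -0.36 ± 0.16 (adjusted p = 0.198). The 4 globin genes differed by -0.17 to 0.01, with a median of -0.10, in libraries depleted of globin RNA. This range depended on day 23 libraries 7 and 8, whose globin shares were low. Without them the median was -0.36 with 0 called. Without day 26 library 1 as well it was -0.38 and 2 of 4 fell, where 10.6% of all genes did. T cell genes had a median of -0.04, and 1 of 25 fell, where 0.605% of all genes did. That gene was Lat, the adaptor that links the T cell receptor to signalling, also expressed in platelets. It ran from 11.5 to 20.4 CPM on day 23 (median 17.04) and from 9.57 to 13.2 on day 26 (median 11.9), and fell by 0.49 ± 0.10 (adjusted p = 0.017).

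Heat shock, immediate early, clock and dendritic cell lists had 1 or 2 members that passed, where 1.53% of all genes did. Of 15 heat shock genes 1 rose, Dnajb1, an HSP40 co-chaperone. It ran from 10.8 to 15.8 CPM on day 23 (median 11.8) and from 11.3 to 31.8 on day 26 (median 19.6), and rose by 0.73 ± 0.14 (adjusted p = 0.016). Hspa8 and Hsph1 of the same list differed by 0.12 and -0.06. Of 27 immediate early genes Cd69, an early activation receptor of lymphocytes, rose by 0.66 ± 0.14 (adjusted p = 0.025) and Jund, an AP-1 subunit, fell by 0.63 ± 0.14 (adjusted p = 0.033). Nr1d2, a repressor of the circadian clock, rose by 0.44 ± 0.12 (adjusted p = 0.049), 1 of 21 clock genes. Tcf4, a factor of plasmacytoid dendritic cells and B cells, rose by 0.58 ± 0.13 (adjusted p = 0.033), 1 of 12 dendritic cell genes. Siglech, which defines plasmacytoid dendritic cells, had the opposite sign, -0.81 ± 0.25 (adjusted p = 0.086).

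In the interferon, eosinophil, basophil, NK, monocyte, T helper, granule, Toll-like receptor, stress and respiratory chain lists 0 members were called. The 32 type I interferon-stimulated genes had a median of -0.14, the 23 interferon gamma-responsive genes 0.04, the 10 eosinophil genes 0.06 and the 10 basophil genes -0.27. The 18 genes of NK and cytotoxic cells had a median of 0.06, the 18 monocyte genes -0.05 and the 14 regulatory T and T helper 2 genes -0.02. Oasl2, an interferon-induced gene, differed by -0.51 ± 0.38, and Ccr3, the eotaxin receptor of eosinophils, by 0.16 ± 0.20 (adjusted p 0.481 and 0.710). Ighe, the IgE heavy chain, was near its detection limit, with at most 0.391 CPM on day 23 and 0.214 on day 26. The 10 immature neutrophil granule genes had a median of -0.80, the 22 Toll-like receptor and inflammasome genes -0.10, the 20 Atf4 targets -0.09 and the 16 glucocorticoid-responsive genes -0.16. The 30 nuclear respiratory chain genes had -0.20 and the 13 mitochondrially encoded ones -0.28.

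Markers of tissues that could enter a tail vein sample were lowest for keratinocytes and varied most between libraries for cartilage, bone and fibroblasts. The 17 keratinocyte genes summed to 1.74 to 4.51 CPM on day 23 and 1.37 to 8.36 on day 26, with Flg and Ivl at 0 in all 10 day 23 libraries. The 18 cartilage, bone and fibroblast genes summed to 15.1 to 162.2 and 11.2 to 99.6 CPM, and the 9 muscle and fat genes to 13.6 to 33.9 and 11.5 to 27.7. In these 3 lists 0 genes were called.

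The dermatitis score was then fitted within the days. In a fit with day and score together, the score slope passed for 1147 genes (6.3%), 893 rising (4.91%) and 254 falling (1.4%) with the score. Among them were 18 of 22 mature neutrophil genes, all rising, with a median slope of 0.83 on the log2 scale per score point. Without day 26 library 1 only 1 of the 22 passed, as without day 23 library 5, with median slopes of 0.74 and 0.75. S100a9 rose by 0.98 ± 0.21 per point (adjusted p = 0.013). B cell genes had a median slope of -0.45 with 5 of 20 falling and MHC class II genes -0.39 with 4 of 11 falling; without either of these libraries 0 of both lists passed. Platelet genes had a median slope of 0.08 with 0 of 20 called, and H1f4 had -0.08 (adjusted p = 0.625). Of the genes higher on day 26, 96.4% had a negative slope on the score, and of the 110 lower genes 91 had a positive one, with medians of -0.15 and 0.10. Over all genes the median slope was -0.03. The slope and the difference were estimated from the same 20 libraries, and the genes were chosen by the difference. These shares of signs therefore cannot show whether the genes follow the score. The slope passed for 12 of the higher and 10 of the lower genes. With the score as a covariate 1505 genes (8.27%) differed between the days, 747 higher and 758 lower, among them all 279.

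The slope was also fitted on each day. On day 23 alone 905 genes passed (4.97%), 845 of them rising (4.64%), and on day 26 alone 0 passed (0.0%; unadjusted p under 0.05 in 1525, DESeq2 3). A test of the difference of the slopes called 0 genes (0.0%; unadjusted p under 0.05 in 1170, DESeq2 11). The median slope of mature neutrophil genes was 1.09 on day 23. On day 26 it was 0.53 with all libraries and -0.14 without library 1, and without that library 533 of all genes had an unadjusted p under 0.05. The 905 fell to 83 without day 23 library 5, and the 1147 fell to 39 without the same library and to 0.775% of genes without day 26 library 1. Without day 23 libraries 7 and 8 the 1147 fell to 475.

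**Figure D4:**
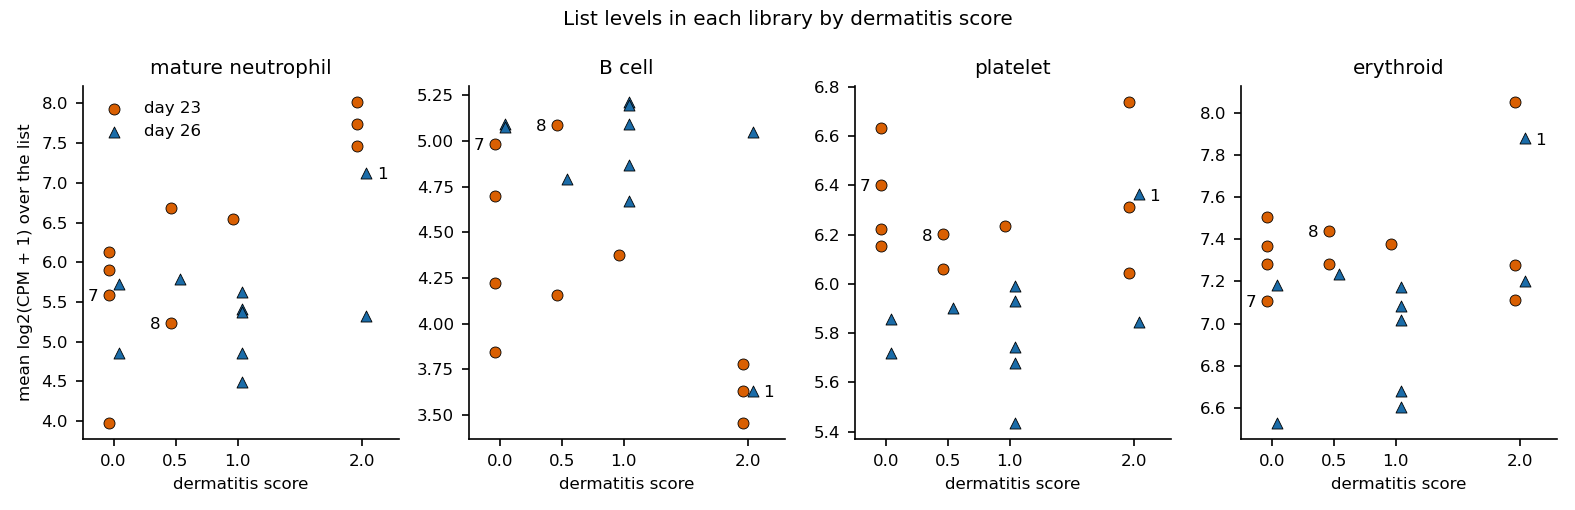
Mean log2(CPM + 1) over the genes of 4 lists in each library (y axis) by dermatitis score (x axis), with day 23 as circles and day 26 as triangles. Day 26 library 1 and day 23 libraries 7 and 8 are numbered; library 1 lies near the day 23 libraries of score 2 in the neutrophil and B cell panels.

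The same cohorts were compared at their second sampling. Cohort 8 on day 40 against cohort 7 on day 44 left no gene past the threshold (0 genes, 0.0%); 1879 had an unadjusted p under 0.05 and DESeq2 called 16. Of the genes higher at the first sampling 77.5% had the same sign at the second, with a median difference of 0.09, and of the 110 lower genes 49 had the same sign, with a median of 0.06. The median difference over all genes at the second sampling was 0.03. Tgif1 differed by 0.17, Gp5 by 0.14, H1f4 by -0.56 and Cxcr4 by 0.33. The platelet list had a median of 0.21, mature neutrophil genes 0.28, B cell genes 0.01 and histone genes -0.45. A test of the first difference minus the second called 0 genes (0.0%; unadjusted p under 0.05 in 2513, DESeq2 97). The labels do not say whether same-numbered libraries of a cohort come from the same mouse, and the test took them as separate. With the number as a block within each cohort, 265 genes (1.46%) were called, 43 higher and 222 lower. At an unadjusted p under 0.05 the test without this block passed for 60.9% of the higher and 65 of the 110 lower genes. These genes were chosen by the first difference, which is part of the test. Their share therefore cannot show whether the difference changed. The days of the second sampling lie in the reverse order between the cohorts, so this comparison holds neither day nor cohort fixed.

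The levels of both days were set beside those of the cohorts sampled just before and after, cohort 6 on day 19 and cohort 9 on day 30 (mean ± SD, n = 10 each, no test). Values are given in the order of days 19, 23, 26 and 30. Tgif1 was 5.68 ± 0.932, 3.77 ± 0.782, 6.82 ± 0.922 and 5.46 ± 1.09 CPM. Day 23 was the lowest of the 9 first-sampling means of this gene and day 26 the highest. Hdac9 was 14.6 ± 3.55, 7.07 ± 3.26, 14.6 ± 3.90 and 10.8 ± 2.42 CPM, with equal means on days 19 and 26 and a lower one on day 23. Gp5 was 22.6 ± 2.71, 38.5 ± 8.86, 24.5 ± 4.56 and 35 ± 9.57 CPM, alternating between the cohorts. S100a8 was highest on day 23 among the 9 first-sampling means, at 2608 ± 2261 CPM. Cd79b was 140 ± 24.3 CPM on day 2, in cohort 1, 47.1 ± 23.8 on day 23, the lowest of the 9, and stood at 66.2 ± 16.6 on day 26 and 54.8 ± 15.8 on day 30. Cxcr4 was 42.03 ± 10.6, 41.2 ± 8.77, 62.2 ± 10.9 and 56.01 ± 13.2 CPM, higher on the later pair of days. Between days 23 and 26 the ranges of mean ± SD overlapped for S100a8 and Cd79b and did not for Tgif1 and Gp5.

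**Figure D5:**
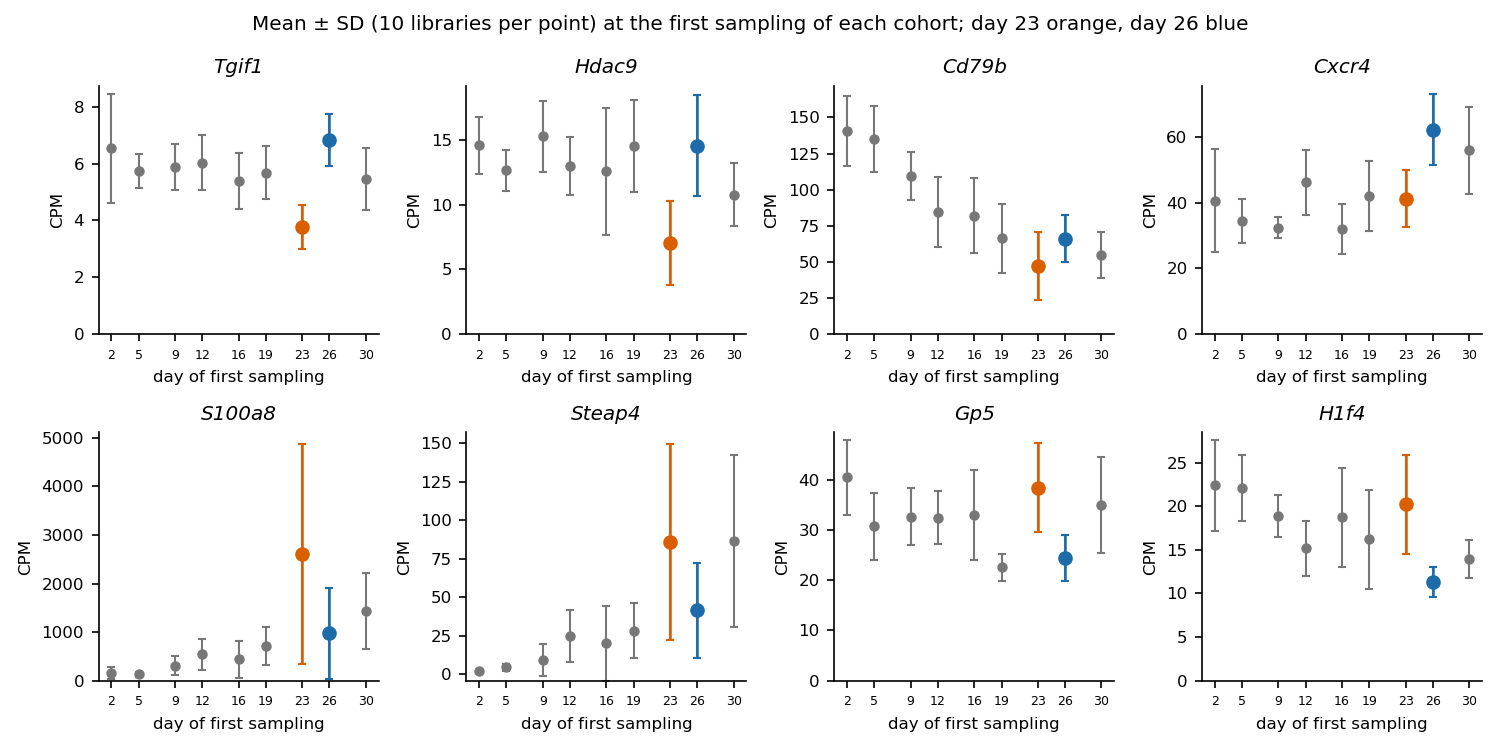
Mean and SD (10 libraries per point) of 8 genes in CPM on the 9 days of first sampling, each day in its own cohort. Day 23 (orange) holds the lowest mean of Tgif1, Hdac9 and Cd79b and the highest of S100a8, and day 26 (blue) the highest mean of Tgif1 and Cxcr4 and the lowest of H1f4.

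Libraries of day 23 varied more among themselves than those of day 26. Over 11218 genes of at least 1 CPM, the SD of log2(CPM + 1) was larger on day 23 in 8741 (77.9%), with medians of 0.283 and 0.215. Without day 23 libraries 7 and 8 and day 26 library 1 the share was 87.1%, with medians of 0.268 and 0.173. Mature neutrophil genes had a median SD of 1.33 on day 23 and 0.74 on day 26, platelet genes 0.34 and 0.30. Red cell genes ran the other way, with 0.34 and 0.40. The scores also spread more on day 23, and their part in the spread of single genes was not tested.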

How the data were processed

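Gene levels were taken from the deposited table of estimated counts that the authors made with DRAGEN on GRCm39, per the submitters' processing notes; the sources used here give neither its version nor the annotation release or strand setting. Per the labels' protocols, RNA of tail vein blood was made into stranded total RNA libraries after depletion of rRNA and globin RNA. All 190 count columns matched a sample and 0 were unused. Of the values, 2.86% were not whole and were rounded. Genes passing edgeR's filterByExpr over the series' 20 groups (minimum count 10, minimum total 15) were kept, 18192 of 55414, and scaled by TMM. CPM use these TMM library sizes over all 190 libraries. The 20 libraries were fitted with edgeR 4.0.16 (R 4.3.3, robust quasi-likelihood), and genes with a Benjamini-Hochberg adjusted p under 0.05 were called; "rose" and "fell" refer to these calls. DESeq2 1.42.0 was an alternative, beside other normalization, filters, covariates, sets of libraries and the omission of each library. Library measures were compared by two-sided permutation tests with 100000 permutations.

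The named genes were the 12 largest rises and 12 largest falls among called protein-coding genes of at least 1 CPM with medians of the same sign, the 4 members of smallest p in each of 31 lists, and Steap4, Ccr3, Oasl2, Cd79b, Ighe, Alas2 and Pf4; others were chosen after their values were seen. The members and lists were chosen with earlier results of these data known. In counts simulated for this comparison (18192 genes), 35% of genes changed by 0.5 on the log2 scale and 91% of those changed by 1 were called. Only genes above 1 CPM were changed, and counts were drawn independently, without variation shared by the genes of a library. These shares therefore do not describe libraries that stand apart, as some did here. Symbols shared by several genes (79 symbols, 980 genes) were kept apart by identifier. The labels number the libraries of a group but do not say that each is a separate animal, so p-values measure the spread between these samples. Same-numbered libraries correlated over 0.1 in 4 of 10 pairs between days 23 and 26 and, between samplings, in 8 of 10 in cohort 7 and 4 of 10 in cohort 8. The main fits therefore did not use the numbers as pairs. Some results are not reported here.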

Additional observations from a re-analysis of the deposited data

Results flagged for a closer look

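In 15 of 76 groups of 10 libraries the highest or lowest library lay farther from the others than Dixon's 95% limit allows. Chance gives about 1 in 20 for independent groups that were not selected. These groups share the same 20 libraries, and many are of genes chosen for their difference. The 15 therefore cannot be set against that rate. Day 26 library 1, of dermatitis score 2, was the lowest of its day for Lamp3 (0.43 CPM), Hdac9 (5.81 CPM), Ap1s3 (1.58 CPM), Dennd5b (14.7 CPM), Pgap1 (35.4 CPM) and Cd79b (25.6 CPM). The same library was the highest of its day for Lipg (0.717 CPM), Lin28a (1.36 CPM), Alas2 (49600 CPM) and Pf4 (1050 CPM). Day 23 library 6, also of score 2, was the highest of its day for Lipg (33.6 CPM) and Smim4 (10.0 CPM). Day 23 library 2, of score 0, was the lowest of its day for Steap4 (2.61 CPM). Day 26 library 7 had the highest total count (72 M) and the highest count outside globin, mitochondrial rRNA and RNA component genes (39.5 M).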

How the results depend on the processing

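No gene called between day 23 and day 26 changed sign under any alternative, but the share called did change. Against 1.53% of genes, DESeq2 called 10.6%, the fit with globin and mitochondrial rRNA shares as covariates 6.72%, that with the dermatitis score 8.27% and that with all 90 first-sampling libraries 9.97%. The fit of the 40 libraries of both cohorts called 0.396%, libraries of score 0.5 to 2 0.632% and libraries of score 0 or 0.5 0.0% (1348 genes at an unadjusted p under 0.05). Settings chosen after seeing the data gave 6.84% without day 23 libraries 7 and 8, 21% without these and day 26 library 1, and 14.9% with the score and without day 26 library 1. Leaving out 1 library gave 0.198% (day 26 library 5) to 12.5% (day 26 library 1). The share of higher calls was 60.6%, 50% by DESeq2, 47.6% with the 90 libraries, 49.6% with the score, 75% with the 40 libraries and 24.3% among libraries of score 0.5 to 2, and leaving out 1 library gave 43.1% (day 26 library 1) to 79.2% (day 26 library 8). At the second sampling DESeq2 called 0.0884% against 0.0%. For the difference of the samplings DESeq2 called 1.04%, the filter over the fitted groups 0.00674% and the covariates 0.126%, against 0.0%. For the score slope DESeq2 called 14.1%, the covariates 3.89% and the fit without day 23 libraries 7 and 8 2.61%, and leaving out 1 library gave 0.214% to 9.02%, against 6.3%. On day 23 alone DESeq2 called 10.7% and leaving out 1 library gave 0.456% to 5.22%, against 4.97%. DESeq2 called 0.0167% on day 26 alone and 0.0609% for the difference of slopes, against 0.0%. The cause of these changes was not tested.

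Same-numbered libraries of days 23 and 26 share only a number: 4 of 10 pairs correlated over 0.1 and 0 correlated best with their own number. Between the samplings of a cohort 8 of 10 pairs correlated over 0.1 in cohort 7 and 4 of 10 in cohort 8, with 2 and 1 correlating best with their own number, and the labels do not say that a number marks a mouse. With the number (within a cohort for the difference of the samplings) as a replicate block 0.0275% of genes were called between the days, 0.033% at the second sampling, 1.46% (265 genes, 222 of them lower) for the difference of the samplings, where 0 were called without it, and 0.0% for the score slope. Depth limits low genes such as Ighe and Flg, where a difference was not detectable.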
